A study of Homo sapiens with 12 samples.

Results

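The genes described here are 54 interferon-stimulated genes, a list of named symbols. The list was proposed with earlier results of these data known, while the rule that finds the members uses symbols only. All 54 symbols occur among the 56832 symbols of the count tables. Of these, 38 had enough counts to be tested, against 14431 symbols tested in all, and the other 16 had at most 8 counts in any library.

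RNA sequencing measured total RNA of 12 libraries labelled SW1736, an established human line of anaplastic thyroid carcinoma. The cells carried the vector pCDH-TRB, for stable expression of thyroid hormone receptor beta (TRB cells), or the empty vector pCDH-EV (EV cells). All cells were first kept 24 h in phenol-red free medium with charcoal-stripped serum, which removes hormone, and then received 10 nM triiodothyronine (T3), the active thyroid hormone, or its vehicle sodium hydroxide (NaOH) for 24 h. The 4 groups of 3 libraries are EV vehicle, EV T3, TRB vehicle and TRB T3. EV cells have THRB transcripts of their own, so they lack the supplied receptor only, and the labels do not say whether a vector line is 1 clone or a pool. They do not say either that replicates were separate cultures, so p-values measure the spread between these libraries, which may be technical.

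Interferons are secreted proteins that cells release when they sense viral nucleic acid. Binding of a type I interferon to its receptor activates the kinases JAK1 and TYK2, which phosphorylate STAT proteins. These join IRF9 in a complex that binds the interferon-stimulated response element (ISRE) of target promoters, while interferon gamma acts through STAT pairs at the gamma-activated site (GAS). The targets include sensors of viral RNA, transcription factors, the ubiquitin-like protein ISG15 and many proteins that block steps of viral replication. Thyroid hormone receptors are ligand-bound transcription factors that bind AGGTCA hexamers, often as a repeat with a spacer.

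The promoters below show what many members share in sequence and were chosen from members that the results turn on. Each is from RefSeq promoter windows (GRCh38.p14, 250 bases before to 50 after a start), is written 5′ to 3′ on the strand of the gene, and has in capitals the matches to GAAANNGAA, the core of the ISRE, on either strand. For IRF1 the capitals mark a match to TTCNNNGAA, the form of the GAS, which reads the same on both strands.
DDX60, chr4:168318779-168318858, minus strand: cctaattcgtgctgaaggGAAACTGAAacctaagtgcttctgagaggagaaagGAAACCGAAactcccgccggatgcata
IFIT5, chr10:89414494-89414573, plus strand: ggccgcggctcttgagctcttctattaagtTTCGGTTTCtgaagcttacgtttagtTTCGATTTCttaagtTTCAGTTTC
IFIT3, chr10:89327823-89327902, plus strand: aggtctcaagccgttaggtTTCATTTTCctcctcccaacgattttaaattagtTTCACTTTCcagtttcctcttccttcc
PARP14, chr3:122680799-122680828, plus strand: ttccaggaaacGAAAGCGAAagagtcaaag
DTX3L, chr3:122564311-122564340, plus strand: gggagggacctccagggaagcGAAACTGAA
ISG15, chr1:1013357-1013436, plus strand: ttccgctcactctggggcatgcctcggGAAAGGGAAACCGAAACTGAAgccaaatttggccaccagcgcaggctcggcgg
OAS3, chr12:112938444-112938473, plus strand: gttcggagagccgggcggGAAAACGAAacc
IRF1, chr5:132490854-132490933, minus strand: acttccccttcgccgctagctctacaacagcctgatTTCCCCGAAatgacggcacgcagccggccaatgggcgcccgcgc

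Promoter windows were found for 41 of the 54 members, 55 windows in all. GAAANNGAA occurred on either strand in 37 of the 55 (67.3%), against 2847 of all 35116 windows (8.11%), and 31 of the 41 members had at least 1 such window. TTCNNNGAA occurred in 14 of the 55 (25.5%), against 7.66% of all windows. AGGTCA occurred in 3 of the 55 (5.45%), against 13.8% of all windows. A pair of AGGTCA hexamers in the same direction with 4 bases between them was in 0 of the 55 and in 7 windows of all (0.0199%). These are matches of letters in short windows, not measured binding sites. The members without a window are DDX58, DHX58, GBP2, IFIT2, IFITM2, IRF2, IRF7, MX2, OAS2, OASL, PARP10, TRIM22 and USP18.

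Depth and the quality of the libraries bear on every value. Gene counts per library ran from 3819306 to 13086717. THRB, the supplied gene, stood at 13.0, 15.2 and 15.6 CPM (read counts divided by the scaled library size) in EV vehicle, 12.3, 18.3 and 14.2 in EV T3, 80.2, 79.8 and 80.4 in TRB vehicle and 322, 190 and 297 in TRB T3, and every TRB library lay above every EV library. The counts do not separate vector from native transcripts. TRB T3 replicate 2 stood apart, and the biological coefficient of variation was 0.329 with it and 0.131 without it. Of the thyroid markers, PAX8 was present at group means of 2.76 to 5.88 CPM, while FOXE1 and TSHR were at 0 in every library and TG never passed 0.625 CPM. Epithelial markers were high (EPCAM 317 to 1100.4 CPM) and VIM never passed 1.51 CPM. The identity of the line was not checked beyond these markers, which show little of a thyroid or mesenchymal cell. Of the 6 mesenchymal markers, 2 were at 0 in every library, but the fibronectin gene FN1 moved with T3, from a mean of 14.7 to 70.7 CPM in EV and from 9.57 to 242 CPM in TRB cells. The mean of COL1A1 went from 18.6 to 24.0 CPM in EV but fell from 26.6 to 9.99 CPM in TRB cells. That of VIM fell in both, from 1.08 to 0.622 and from 0.971 to 0.443 CPM. By group means, FN1 made up most of the summed markers in the T3 groups. The summed mesenchymal markers spanned 33.4 to 35.4 CPM in EV vehicle, 88.3 to 108 in EV T3, 35.9 to 38.6 in TRB vehicle and 149 to 317 in TRB T3, and their part in the results below was not tested. Of 7 leukocyte markers, 3 were at 0 in every library, CD3E and NKG7 among them, and PTPRC never passed 0.217 CPM, while LYZ stood at 778 to 1588.6 CPM and the group mean of CD14 went from 0.390 CPM in TRB vehicle to 6.38 in TRB T3. Summed leukocyte markers spanned 788 to 1588.8 CPM in TRB T3 and 804 to 983 in TRB vehicle, and their part was not tested either. In bulk RNA, a larger share of cells that express a gene and more RNA per cell cannot be told apart.

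**Figure D1:**
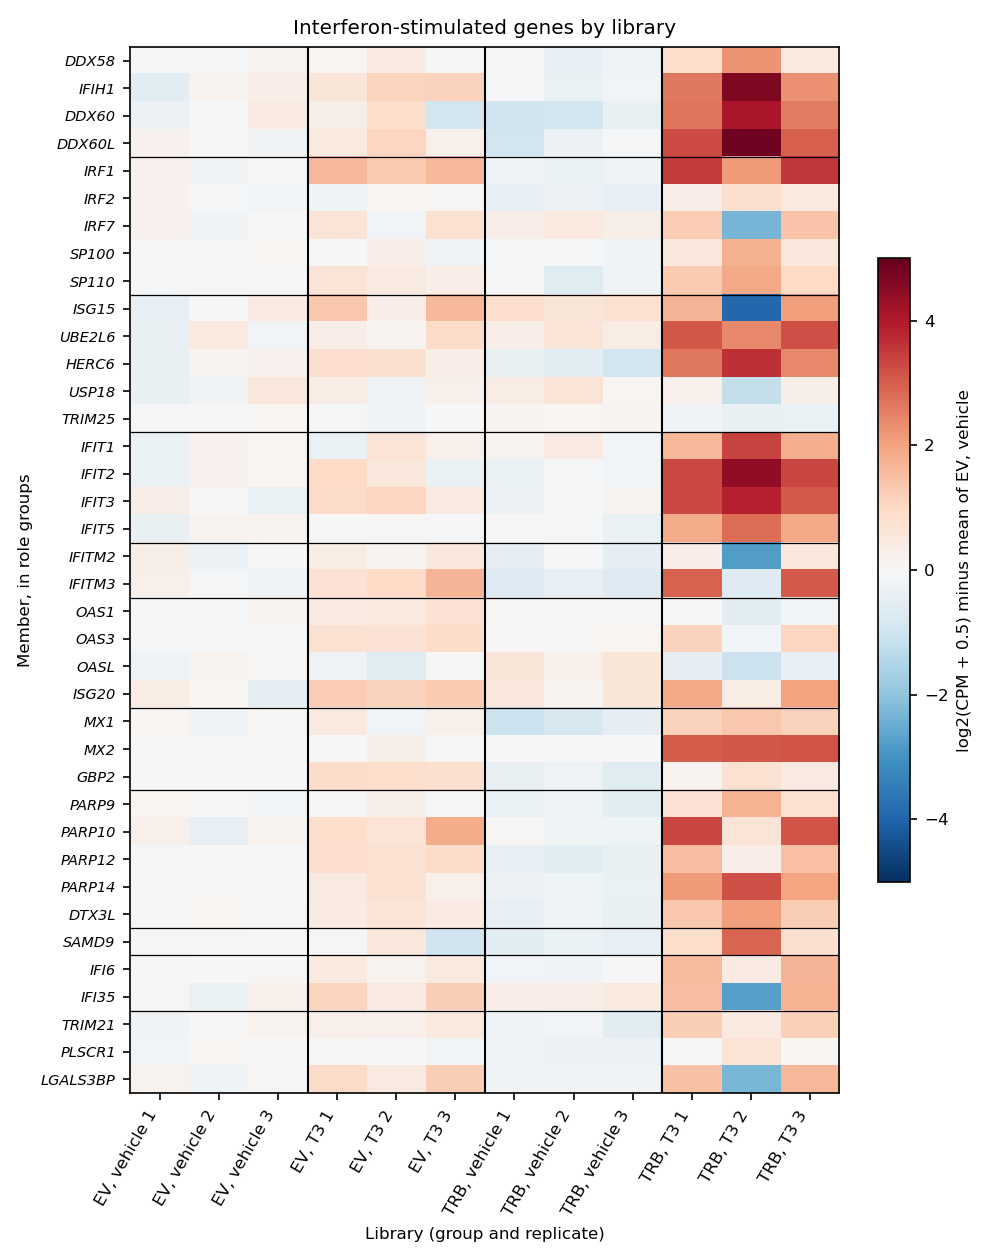
Each row is a tested member and each column a library; colour gives log2(CPM + 0.5) minus the mean of the EV vehicle libraries, and lines divide role groups and sample groups. Most of the 38 rows are red in TRB T3; replicate 2 of that group is darker than its neighbours for members such as IFIH1 and SAMD9, and blue for ISG15, IRF7, IFITM2, IFI35 and LGALS3BP.

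Within TRB T3, replicate 2 differed from replicates 1 and 3 gene by gene. It lay above both for 19 of the 38 tested members and below both for 18. All 16 members whose longest transcript has a GC content under 45% lay above, and 0 of the 9 at 55% or more did. Over the 38 members, the ratio of replicate 2 to the mean of the others fell with GC content, at a Spearman correlation of -0.92. EV T3 replicate 2 had the same order to a smaller degree, at -0.89 over 37 members. These correlations describe single libraries and carry no p-value. Counts of members are therefore given for all 12 libraries and for the 11 without TRB T3 replicate 2. Where a member is described with 11 libraries alone, its 12-library value stands beside it if the call was lost; in EV cells no member was called with 12, so every EV call below is from 11.

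**Figure D2:**
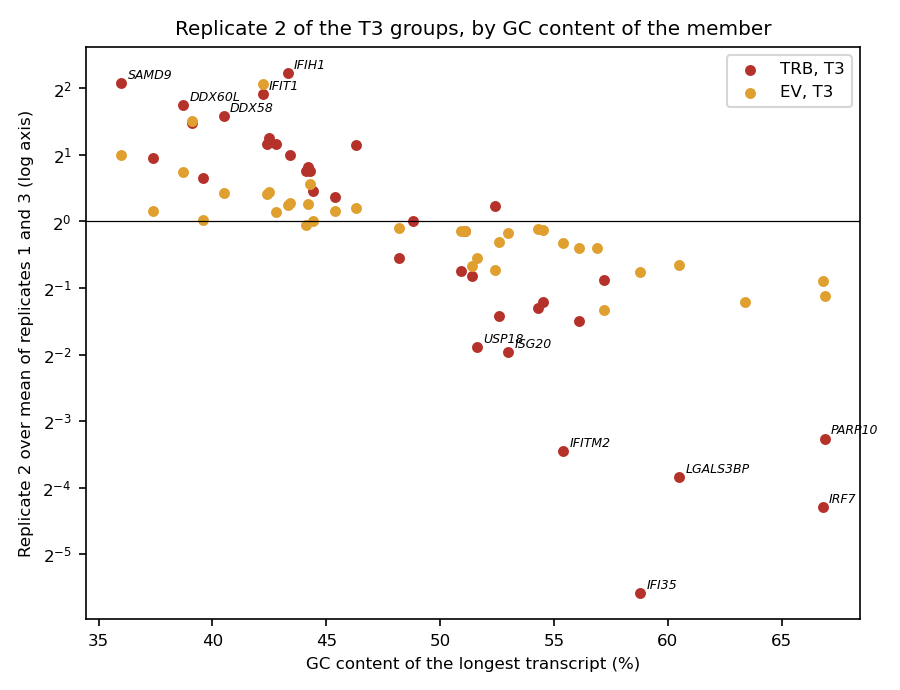
The x axis is the GC content (%) of the longest transcript of a member and the log y axis its CPM in replicate 2 over the mean of replicates 1 and 3, for TRB T3 (red) and EV T3 (orange). Points fall from above 1 at low GC to below 1 at high GC in both groups; members at 0 in replicate 2, such as ISG15 and IFITM3 in TRB T3, are not drawn.

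In TRB cells T3 raised most of the tested members. With all 12 libraries 26 of 38 were called higher and 1, OASL, lower, where called means an adjusted p under 0.05 in edgeR's quasi-likelihood test; 8.54% of all 14431 genes were called higher and 6.2% lower. Without replicate 2, 34 were called higher and 2, OASL and TRIM25, lower, against 18.1% and 15.2% of 14825 genes. All 26 members called with 12 libraries were called again with 11. The median log2 fold change over the 38 was 1.75 with 12 libraries and 1.72 with 11, where that over all genes was 0.007 and -0.011. For 26 members all 3 TRB T3 libraries lay above all 3 TRB vehicle libraries, which held for 17.3% of all genes. Of the 38, MX2, IFIT1, IFIT2, IFIT3 and UBE2L6 never passed 1.06 CPM outside TRB T3. These members had enough counts to be tested only through the group where they are high. With 12 libraries the same held for IFITM3 and PARP10. Outside TRB T3 these passed 1.06 CPM only in EV T3 replicate 3, at 2.02 and 2.28 CPM. The counts and medians here and below include all of these members. With only the compared groups fitted, 14 members were called higher, against 3.23% of all genes.

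In EV cells the median effect was smaller. With 12 libraries edgeR called 0 of 38 members, against 0.208% of genes called higher, and 8 members had an unadjusted p under 0.05; DESeq2 called 2, GBP2 and IRF1 (0.728% of genes higher). limma-voom with sample weights called 21, where it called 20.4% of all genes higher and 24.1% lower. With the 11 libraries edgeR called 14 higher and 0 lower, against 3.76% of genes called higher: IFIH1, IRF1, ISG15, IFIT3, IFITM3, OAS1, OAS3, ISG20, GBP2, PARP12, PARP14, DTX3L, IFI35 and LGALS3BP. The EV libraries are the same in both fits, which differ in the estimated spread. The median log2 fold change was 0.54 with 12 and 0.55 with 11 libraries, against 0.00 and 0.006 over all genes. All 3 EV T3 libraries lay above all 3 EV vehicle libraries for 19 members, and for 11% of all genes. Leaving out a further library gave 5 to 17 calls. These were 5 without EV vehicle replicate 2 (1.29% of genes higher), 6 without EV T3 replicate 1 (1.5%), 7 without EV vehicle replicate 3 (1.54%), 8 without EV vehicle replicate 1 (2.65%), and 9 without TRB T3 replicate 1 (2.2%) or replicate 3 (2.13%). The 17 came without EV T3 replicate 2, where 21.1% of all genes were called higher. Non-unique alignments, which were not counted, also moved with T3 in EV cells: they made up 66.32%, 33.08% and 37.86% of the EV vehicle files and 77.71%, 69.6% and 91.95% of the EV T3 files, without overlap, and their part in the EV result was not tested. They made up 66.88%, 43.68% and 46.38% in TRB vehicle and 58.89%, 19.03% and 66.62% in TRB T3, where the groups overlapped.

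The test of the difference asks which members T3 raised more in TRB than in EV cells. It called 7 members higher with 12 libraries (1.77% of all genes): DDX60, DDX60L, HERC6, IFIT5, MX1, PARP14 and DTX3L. With 11 libraries it called 21 higher (8.55% of genes) and 1, OAS1, lower (6.68% of genes). The share of all genes called higher moved to 5.83% without EV vehicle replicate 2 as well, and to 18.6% without EV T3 replicate 2 as well. The median difference was 1.42 with 12 and 1.18 with 11 libraries, against -0.007 and 0.031 over all genes. The 12-library count fell to 2, 3 or 4 on leaving out any TRB vehicle or EV vehicle library, or EV T3 replicate 1 or 3; the 11-library count stayed between 16 and 23 on leaving out any further library.

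With T3 in both, TRB cells stood above EV cells for 16 members and below for 1 (OAS1) with 12 libraries, against 4.13% and 2.55% of genes. With 11 libraries it was 30 above and 2 below (OAS1 and GBP2), against 11.8% and 7.9%. The 12-library count was 9 without EV T3 replicate 1, 10 without replicate 2 and 9 without replicate 3, and 1 when only the compared groups were fitted. In vehicle edgeR called 0 members with 12 libraries (0.00693% of genes higher) and 0 with 11 (0.027%), with an unadjusted p under 0.05 for 1 and 12 members, and DESeq2 and limma-voom also called 0. With only the vehicle groups fitted, 1 member was called higher and 4 lower, against 5.9% and 5.26% of genes. The median difference of TRB from EV in vehicle was -0.26 with 12 and -0.24 with 11 libraries, against -0.025 and -0.004 over all genes. These comparisons share groups of libraries and are not independent of each other.

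Members were then sorted by these calls. A member is placed with the supplied receptor when T3 raised it in TRB cells, the difference was called higher, and TRB stood above EV cells with T3. All 3 have to be calls. It is placed with both vectors when it was called higher in TRB and in EV cells. With 11 libraries 13 members met the receptor rule and were not called in EV cells: DDX58, DDX60, DDX60L, IRF2, SP110, HERC6, IFIT2, IFIT5, MX1, PARP9, SAMD9, IFI6 and TRIM21. Another 8 met both rules, rising in both vectors and more in TRB: IFIH1, IRF1, IFIT3, IFITM3, PARP12, PARP14, DTX3L and LGALS3BP. A further 5 rose in both with no difference called: ISG15, OAS3, ISG20, GBP2 and IFI35. Their levels with T3 were not all alike. TRB stood above EV cells with T3 for OAS3 (0.39, adjusted p = 0.0156), ISG20 (0.87, adjusted p = 0.0423) and IFI35 (0.78, adjusted p = 0.0248). GBP2 stood below (-0.52, adjusted p = 0.0271), and ISG15 was not called (0.84, adjusted p = 0.0648). For 8 called in TRB cells the calls separate nothing more: IRF7, SP100, UBE2L6, IFIT1, IFITM2, MX2, PARP10 and PLSCR1. USP18, TRIM25, OAS1 and OASL were not called higher in TRB cells. With 12 libraries 7 members met the receptor rule, 0 were placed with both vectors, 19 were called in TRB with no further separation and 12 were not called higher, so 24 of the 38 changed class. The 13 members called in both vectors with 11 libraries numbered 5 without EV vehicle replicate 2 or EV T3 replicate 1, 6 without EV vehicle replicate 3, 7 without EV vehicle replicate 1, and 8 without TRB T3 replicate 1 or 3. A member that missed the threshold in EV cells is not thereby shown to be unresponsive there. The 11-library classes also differed in GC content of the longest transcript. Of the 13 that met the receptor rule alone, MX1, IFI6 and TRIM21 were at 50.9% to 56.1% and the others at 36.0% to 46.3%. Of the 5 with no difference called, GBP2 was at 44.4% and the others at 53.0% to 63.4%. The 8 that met both rules spanned 42.4% to 60.5%. The part of GC content in the classes was not tested.

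**Figure D3:**
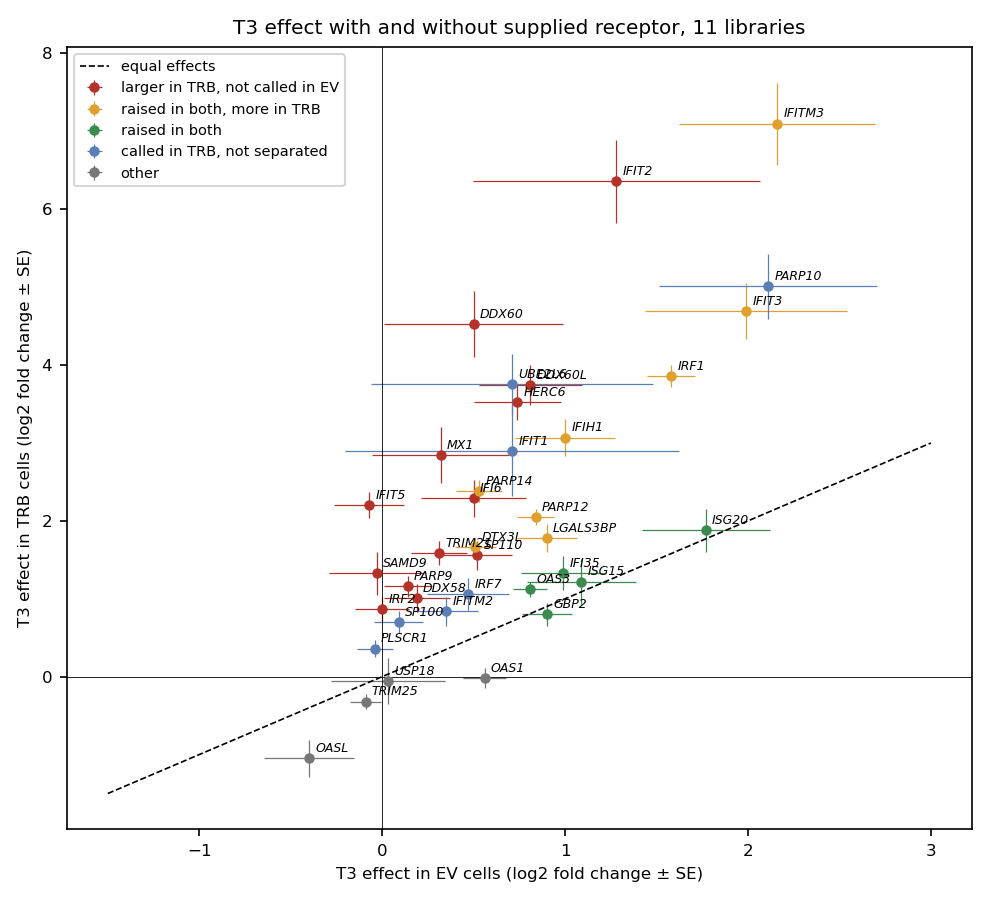
The x axis is the log2 fold change by T3 in EV cells and the y axis that in TRB cells, fitted on 11 libraries, each point a member with bars of 1 SE and coloured by class; the dashed line marks equal effects and MX2 is left out. Most points lie above the line; GBP2 and ISG20 lie near it and OAS1 below it, and IFIT2 and IFITM3 rest on 2 and 1 counts in TRB vehicle.

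**Figure D4:**
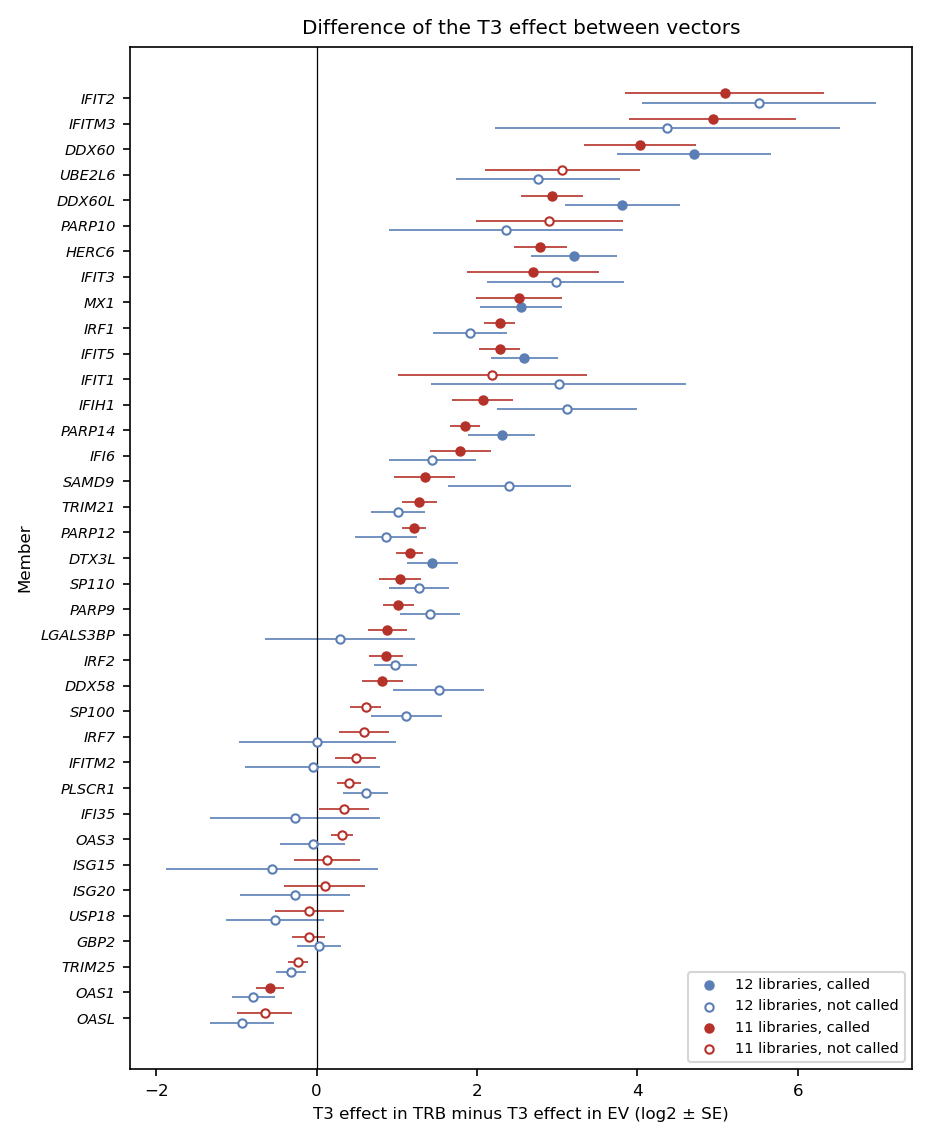
The x axis is the T3 effect in TRB cells minus that in EV cells (log2, bars 1 SE) and each row a member, with all 12 libraries in blue and 11 in red; filled points were called and open points were not, and MX2 is left out. The 7 filled blue points all have filled red points beside them, and OAS1 is the filled red point left of 0.

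The matches to GAAANNGAA did not follow a single class. They were in 8 of 10 members with a window in the class raised with the receptor and not called in EV, and in 7 of 8 raised in both and more in TRB. They were in 3 of 4 raised in both, 2 of 4 called in TRB with no separation, 0 of 2 not called higher, and 11 of 13 not tested. These counts are a description and were not tested.

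The sensors detect viral RNA in the cytoplasm. All 4 tested members rose with T3 in TRB cells in both fits, and with 11 libraries all 4 rose more than in EV cells. DDX58, the RIG-I helicase and the highest of them in mean log2 CPM, not per length, stood at 9.99, 9.56 and 11.7 CPM in EV vehicle, 11, 13.9 and 9.87 in EV T3, 9.86, 7.75 and 8.73 in TRB vehicle and 19.3, 51.1 and 14.6 in TRB T3. The TRB T3 libraries lay above the other 9, replicate 2 furthest. Its log2 fold change in TRB cells was 1.01 (SE 0.18, adjusted p = 0.000975) with 11 libraries and 1.68 (SE 0.40) with 12, and the difference from EV was 0.82 (SE 0.26, adjusted p = 0.0493) with 11 and 1.52 (adjusted p = 0.195) with 12.

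IFIH1, the MDA5 sensor of long double-stranded RNA, stood at 1.09, 2.04 and 2.39 CPM in EV vehicle, 2.93, 4.44 and 4.56 in EV T3, 1.63, 1.29 and 1.59 in TRB vehicle and 13.7, 57.2 and 10.6 in TRB T3. T3 libraries lay above vehicle libraries in both vectors, with 11-library log2 fold changes of 1.00 (SE 0.27, adjusted p = 0.0462) in EV and 3.07 (SE 0.24, adjusted p = 9.59e-07) in TRB cells. The difference of 2.07 (SE 0.38, adjusted p = 0.00321) was called with 11 libraries; with 12 it was 3.12 (SE 0.87, adjusted p = 0.0992). DDX60, a helicase tied to antiviral RNA sensing whose promoter holds a pair of matches, stood at 0.652, 0.817 and 1.38 CPM in EV vehicle, 1.23, 2.11 and 0.253 in EV T3, 0.203, 0.258 and 0.588 in TRB vehicle and 8.48, 23.2 and 8.12 in TRB T3. Only the TRB T3 libraries passed 3 CPM, and EV T3 spanned the EV vehicle range. The difference of its T3 effect was 4.70 (SE 0.96, adjusted p = 0.0292) with 12 libraries and 4.03 (SE 0.70, adjusted p = 0.00238) with 11. With 11 libraries TRB minus EV cells was -1.43 in vehicle (adjusted p = 0.382, not called) and 2.60 with T3 (adjusted p = 0.000379), so part of the difference of DDX60 lies in vehicle. DDX60L, its close paralog, stood at 5.21, 4.33 and 3.86 CPM in EV vehicle, 6.48, 9.93 and 5.32 in EV T3, 2.03, 3.53 and 4.20 in TRB vehicle and 47.1, 144 and 38.3 in TRB T3. Every EV T3 library lay above EV vehicle, and the difference was 3.81 (SE 0.72, adjusted p = 0.0211) with 12 and 2.93 (SE 0.39, adjusted p = 0.000364) with 11 libraries. DHX58, the LGP2 regulator of the other sensors, had 1 to 4 counts per library.

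Transcription factors and nuclear body proteins carry the response in the nucleus. All 5 were called higher in TRB cells with 11 libraries, and 4 with 12. IRF1, an activator whose promoter holds the GAS match shown above, stood at 15, 11.3 and 12.8 CPM in EV vehicle, 40.7, 33.0 and 41.3 in EV T3, 11.5, 10.3 and 11.2 in TRB vehicle and 153, 57.6 and 157 in TRB T3. The order was vehicle, EV T3, TRB T3 with no overlap, and replicate 2 was here the lowest of its group. With 11 libraries T3 raised it by 3.86 (SE 0.14, adjusted p = 1.03e-09) in TRB and 1.58 (SE 0.13, adjusted p = 2.82e-05) in EV cells, a difference of 2.28 (SE 0.19, adjusted p = 1.25e-05). With 12 the difference was 1.91 (SE 0.46, adjusted p = 0.0588).

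SP100, a component of PML nuclear bodies, had the highest mean log2 CPM of this group, not per length. It stood at 41.9, 44.0 and 47.4 CPM in EV vehicle, 44.0, 56.7 and 39.7 in EV T3, 41.8, 42.7 and 39.2 in TRB vehicle and 65.6, 155 and 64.2 in TRB T3. TRB T3 lay above the rest, while EV T3 spanned EV vehicle. Its T3 effect in TRB cells was 0.70 (SE 0.14, adjusted p = 0.00209) with 11 libraries, and the difference of 0.61 (SE 0.20, adjusted p = 0.0519) fell just short of a call. IRF2, a factor that binds the same element as IRF1, and SP110, a relative of SP100, had differences of 0.87 (adjusted p = 0.016) and 1.04 (adjusted p = 0.0204) with 11 libraries, and of 0.98 (adjusted p = 0.0929) and 1.28 (adjusted p = 0.116), not called, with 12. IRF7, the factor that drives interferon alpha genes, stood at 16.5, 0.899 and 18.7 CPM in TRB T3, where replicate 2 lay below every other library and replicates 1 and 3 above all.

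ISG15 is attached to other proteins by a chain of enzymes, here UBE2L6, HERC5 and TRIM25, and removed by USP18. HERC6, a relative of HERC5, is grouped with them. ISG15 itself stood at 5.21, 7.19 and 9.56 CPM in EV vehicle, 18.8, 8.98 and 22.8 in EV T3, 13.3, 11 and 12.4 in TRB vehicle and 23.9, 0 and 31.7 in TRB T3. Without replicate 2, which had no count, TRB T3 lay above TRB vehicle; EV T3 overlapped EV vehicle. With 11 libraries the log2 fold change was 1.22 (SE 0.28, adjusted p = 0.00516) in TRB and 1.09 (SE 0.30, adjusted p = 0.0455) in EV cells, a difference of 0.13 (SE 0.41, adjusted p = 0.853). With 12 neither was called, at 0.61 (SE 0.93) and 1.17 (SE 0.96).

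HERC6, an E3 ligase of the HERC family, stood at 1.95, 3.02 and 3.22 CPM in EV vehicle, 5.25, 5.07 and 3.54 in EV T3, 1.93, 1.72 and 1.18 in TRB vehicle and 19.1, 39.4 and 16.4 in TRB T3. TRB T3 lay far above EV T3, which lay just above EV vehicle, and the difference was 3.21 (SE 0.53, adjusted p = 0.0117) with 12 and 2.79 (SE 0.33, adjusted p = 0.00017) with 11 libraries. UBE2L6, the conjugating enzyme, went from 0.305, 0.517 and 0.336 CPM in TRB vehicle to 5.10, 2.88 and 5.5 in TRB T3, a log2 fold change of 3.51 (SE 0.49) with 12 libraries. TRIM25, a ligase that also activates RIG-I and the highest of the group in mean log2 CPM, ran the other way. It stood at 165, 176 and 186 CPM in EV vehicle, 163, 154 and 178 in EV T3, 192, 189 and 191 in TRB vehicle and 154, 134 and 141 in TRB T3. TRB T3 lay below TRB vehicle without overlap, and with 11 libraries it fell by 0.32 (SE 0.10, adjusted p = 0.02); with 12 the change of -0.41 was not called (adjusted p = 0.0601). USP18, the enzyme that removes ISG15 and dampens interferon receptor signalling, had a log2 fold change of -0.06 (SE 0.30) in TRB cells with 11 libraries. HERC5 had no count in any library, which allows up to 0.0278 CPM over the 12 (counting error only).

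The IFIT proteins bind viral RNA or block its translation. All 4 were called higher in TRB cells in both fits, and IFIT3 was the member of the group also called in EV cells with 11 libraries. IFIT1, IFIT2 and IFIT3 had enough counts to be tested only through TRB T3. IFIT5, with matches on the opposite strand close to its start, stood at 3.26, 5.07 and 5.05 CPM in EV vehicle, 4.32, 4.65 and 4.05 in EV T3, 4.27, 4.05 and 3.36 in TRB vehicle and 17.0, 33.5 and 17.7 in TRB T3. The TRB T3 libraries stood apart and the other 9 overlapped. The T3 effect was 2.20 (SE 0.17, adjusted p = 7.32e-07) in TRB and -0.07 (SE 0.19, adjusted p = 0.829) in EV cells with 11 libraries, a difference of 2.28 (SE 0.26, adjusted p = 0.00011), and of 2.59 (SE 0.42, adjusted p = 0.0104) with 12.

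IFIT2 stood at 0, 0.245 and 0.184 CPM in EV vehicle, 0.772, 0.423 and 0 in EV T3, 0, 0.0862 and 0.0839 in TRB vehicle and 5.70, 13.1 and 6 in TRB T3. TRB T3 held 197 counts against 2 in TRB vehicle, a ratio of 122 after scaling (95% interval of counting error 33.4 to 1016.1), or 97.0 without replicate 2. The difference of the T3 effect was called with 11 libraries (adjusted p = 0.0164) and not with 12 (adjusted p = 0.0808). IFIT3 stood at 0.434, 0.245 and 0.0919 CPM in EV vehicle, 0.926, 1.06 and 0.506 in EV T3, 0.102, 0.258 and 0.336 in TRB vehicle and 6.75, 10.6 and 5.75 in TRB T3. T3 libraries lay above vehicle libraries in each vector, and the 11-library log2 fold changes were 4.69 (SE 0.36, adjusted p = 7.11e-07) in TRB and 1.99 (SE 0.55, adjusted p = 0.0479) in EV cells, with a difference of 2.7 (SE 0.82, adjusted p = 0.0436); with 12 libraries the difference was 2.98 (adjusted p = 0.105). IFIT1 reached 1.5, 6.12 and 1.75 CPM in TRB T3 and at most 0.528 elsewhere. The IFIT genes are paralogs in a cluster, and counting of reads they share is uncertain.

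IFITM proteins hinder the entry of viruses at membranes. IFITM2 stood at 30, 20 and 23.9 CPM in EV vehicle, 31.2, 26.6 and 35.7 in EV T3, 17.9, 22.7 and 17.2 in TRB vehicle and 30.9, 3.06 and 36.2 in TRB T3. Replicate 2 of TRB T3 was the lowest of all libraries and the other TRB T3 libraries lay above TRB vehicle, for a log2 fold change of 0.84 (SE 0.19, adjusted p = 0.00375) with 11 and 0.29 (SE 0.59, adjusted p = 0.756) with 12 libraries. IFITM3 stood at 0.434, 0.245 and 0.184 CPM in EV vehicle, 0.772, 1.06 and 2.02 in EV T3, 0, 0.0862 and 0 in TRB vehicle and 5.48, 0 and 6.12 in TRB T3. EV T3 lay above EV vehicle, and without replicate 2 TRB T3 held 122 counts against 1 in TRB vehicle, a ratio of 191 (33.6 to 7597.2), or 151 with it. The difference was called with 11 libraries (adjusted p = 0.00737), not with 12 (adjusted p = 0.273), and rests on that 1 count. With 11 libraries TRB minus EV cells was -2.60 in vehicle (adjusted p = 0.377, not called) and 2.34 with T3 (adjusted p = 0.000313), so part of the difference lies in vehicle. With 12 libraries IFITM3 had enough counts to be tested only through TRB T3. IFITM1 had at most 2 counts in a library and BST2, tetherin, at most 1. IFITM1 and IFITM2 overlap in GENCODE release 29, so their counts are uncertain.

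The OAS enzymes sense double-stranded RNA and make a nucleotide messenger. With the exonuclease ISG20, 3 of the 4 tested members of this group were called higher in EV cells with 11 libraries and 2 in TRB cells. OAS3, the highest in mean log2 CPM, stood at 34.5, 36.4 and 36.9 CPM in EV vehicle, 61.3, 59.6 and 68.3 in EV T3, 36.1, 37.7 and 38.7 in TRB vehicle and 81.1, 32.2 and 77.1 in TRB T3. Both T3 groups lay above vehicle apart from replicate 2 of TRB T3, and the 11-library effects were 1.12 (SE 0.10, adjusted p = 2.64e-06) in TRB and 0.81 (SE 0.09, adjusted p = 0.000349) in EV cells. The difference of 0.32 (SE 0.14, adjusted p = 0.14) was not called, and with 12 libraries the effect in TRB cells was not called either (0.76, adjusted p = 0.102).

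OAS1 stood at 28.2, 26.8 and 31.9 CPM in EV vehicle, 39.8, 41.2 and 48.1 in EV T3, 30.3, 29.8 and 27.4 in TRB vehicle and 29.5, 19.1 and 26.1 in TRB T3. It rose in EV cells by 0.56 (SE 0.12, adjusted p = 0.0145) with 11 libraries, had a log2 fold change of -0.02 (SE 0.13, adjusted p = 0.935) in TRB cells, and was the member called lower in the difference, at -0.58 (SE 0.17, adjusted p = 0.0389). With 12 libraries that difference was -0.79 (SE 0.27, adjusted p = 0.159). ISG20, an exonuclease that degrades single-stranded RNA, stood at 1.09, 0.817 and 0.368 CPM in EV vehicle, 2.47, 2.22 and 2.53 in EV T3, 1.32, 0.862 and 1.34 in TRB vehicle and 4.05, 1.08 and 4.37 in TRB T3. Its effects with 11 libraries were 1.88 (SE 0.28, adjusted p = 0.000219) in TRB and 1.77 (SE 0.35, adjusted p = 0.0115) in EV cells, apart by 0.10 (SE 0.51, adjusted p = 0.921). With 12 libraries the TRB effect was 1.48 (adjusted p = 0.0506). OASL, an OAS relative without synthetase activity, stood at 5.18, 3.96 and 5.12 CPM in TRB vehicle and 2.18, 1.26 and 2.25 in TRB T3, and fell by 1.28 (SE 0.28, adjusted p = 0.0105) with 12 and 1.05 (SE 0.24, adjusted p = 0.0046) with 11 libraries. OAS2 had at most 3 counts in a library.

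**Figure D5:**
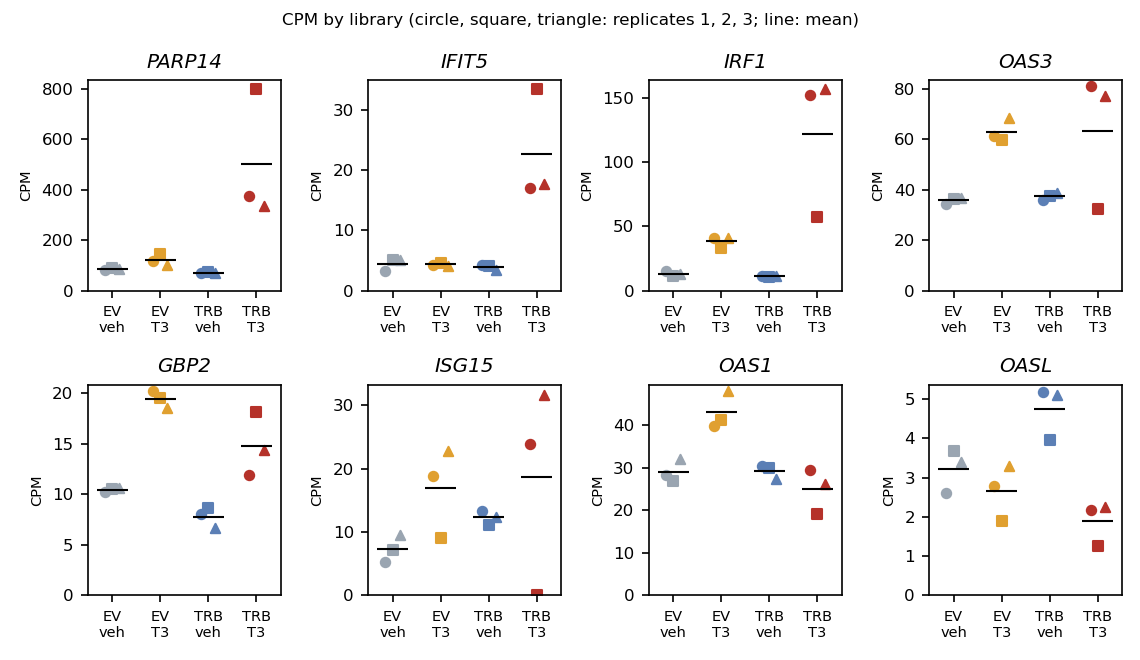
Each panel gives the CPM of a member (y axis from 0) in the 4 groups, with a point per library by replicate and a line at the group mean. PARP14, IFIT5 and IRF1 are highest in TRB T3. For OAS3 and GBP2, T3 libraries lie above vehicle libraries in both vectors, apart from replicate 2 of TRB T3 in OAS3. ISG15 has a higher mean with T3 in both vectors, but its replicate 2 is at 0 in TRB T3 and within the vehicle range in EV T3. OAS1 is highest in EV T3, and OASL has its lowest mean in TRB T3.

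The GTPases assemble on viral or pathogen structures. MX1 stood at 1.09, 0.817 and 1.01 CPM in EV vehicle, 1.54, 0.845 and 1.27 in EV T3, 0.203, 0.345 and 0.588 in TRB vehicle and 2.78, 3.24 and 2.75 in TRB T3. The 3 TRB T3 libraries were close to each other and above the rest, and the difference was 2.55 (SE 0.51, adjusted p = 0.0273) with 12 and 2.52 (SE 0.53, adjusted p = 0.00757) with 11 libraries. With 11 libraries TRB minus EV cells was -1.23 in vehicle (adjusted p = 0.359, not called) and 1.29 with T3 (adjusted p = 0.0159), so part of the difference lies in vehicle. MX2 had no count in the 6 vehicle libraries, 1 count in EV T3, and 3.60, 3.78 and 3.87 CPM in TRB T3. It was at least 41.4-fold higher in TRB T3 than in TRB vehicle (floor of 3 counts over the group; at least 41.2-fold without replicate 2) and 74.0-fold higher than in EV T3 (13.0 to 2951.1, counting error), and its difference of effects could not be fitted.

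GBP2, a guanylate-binding protein, stood at 10.2, 10.5 and 10.6 CPM in EV vehicle, 20.2, 19.5 and 18.5 in EV T3, 8.03, 8.62 and 6.63 in TRB vehicle and 11.9, 18.2 and 14.4 in TRB T3. T3 libraries lay above vehicle libraries in both vectors and EV T3 above TRB T3. With 11 libraries the log2 fold changes were 0.80 (SE 0.15, adjusted p = 0.00127) in TRB and 0.90 (SE 0.14, adjusted p = 0.00235) in EV cells, and the difference was -0.10 (SE 0.20, adjusted p = 0.762). GBP1 had too few counts for the test, with 15 in TRB T3, 0 in TRB vehicle and 1 in the other groups, at least 6.2-fold higher in TRB T3 than in TRB vehicle.

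PARP9, PARP10, PARP12 and PARP14 belong to the ADP-ribosyltransferase family, and DTX3L is the ubiquitin ligase that partners PARP9. All 5 were called higher in TRB cells in both fits. PARP14, the highest of them in mean log2 CPM, stood at 82.3, 89.8 and 84.5 CPM in EV vehicle, 118, 146 and 103 in EV T3, 70.6, 73.7 and 67.9 in TRB vehicle and 377, 799 and 334 in TRB T3. Groups did not overlap, EV T3 lying a little above EV vehicle and TRB T3 far above both. The effects with 11 libraries were 2.38 (SE 0.14, adjusted p = 6.73e-08) in TRB and 0.53 (SE 0.13, adjusted p = 0.0314) in EV cells, a difference of 1.85 (SE 0.19, adjusted p = 5.48e-05), and of 2.31 (SE 0.42, adjusted p = 0.0179) with 12.

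DTX3L went from 55.3, 63.6 and 56.6 CPM in TRB vehicle to 188, 316 and 171 in TRB T3, with differences of 1.44 (SE 0.32, adjusted p = 0.0418) with 12 and 1.16 (SE 0.17, adjusted p = 0.000626) with 11 libraries. PARP9, with a difference of 1.02 (SE 0.19, adjusted p = 0.00376) with 11 libraries and 1.41 (adjusted p = 0.0863) with 12, overlaps DTX3L head to head in GENCODE release 29, and the strand setting of the counts is not given in the sources used here, so reads of their overlap are uncertain. PARP12 rose in both vectors, by 2.05 in TRB and 0.84 in EV cells with 11 libraries, with a difference of 1.21 (SE 0.15, adjusted p = 0.000204), or 0.86 (adjusted p = 0.249) with 12. PARP10 stood at 7.43, 0.720 and 6.37 CPM in TRB T3 and at most 2.28 in EV T3, and its difference missed a call at 2.90 (SE 0.92, adjusted p = 0.0505) with 11 libraries. It had enough counts to be tested only through TRB T3.

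The last groups hold further effectors. SAMD9, a restriction factor for poxviruses, stood at 36.3, 40.9 and 40.1 CPM in EV vehicle, 36.3, 55.9 and 19.2 in EV T3, 27.2, 31.0 and 28.9 in TRB vehicle and 72.7, 298 and 68.2 in TRB T3. TRB T3 lay above the rest and EV T3 spread to both sides of EV vehicle. The difference was 1.35 (SE 0.38, adjusted p = 0.0309) with 11 and 2.40 (SE 0.77, adjusted p = 0.142) with 12 libraries. SAMD9L, its paralog, had at most 3 counts.

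IFI35, a partner of the pathway gene NMI, stood at 5.43, 4.09 and 6.43 CPM in EV vehicle, 12, 7.40 and 12.9 in EV T3, 6.81, 6.81 and 7.64 in TRB vehicle and 16, 0.36 and 18.6 in TRB T3. Apart from replicate 2, T3 libraries lay above vehicle libraries, with 11-library effects of 1.33 (SE 0.21, adjusted p = 0.000434) in TRB and 0.99 (SE 0.23, adjusted p = 0.0261) in EV cells; with 12 the TRB effect was 0.74 (adjusted p = 0.503). LGALS3BP, a secreted glycoprotein and the member with the highest level per kb of exon in EV vehicle (50.7 CPM per kb), stood at 202, 154 and 190 CPM in EV vehicle, 349, 246 and 426 in EV T3, 160, 161 and 162 in TRB vehicle and 496, 37.1 and 571 in TRB T3. Replicate 2 was the lowest of all 12 libraries, and without it the effects were 1.78 (SE 0.18, adjusted p = 8.23e-06) in TRB and 0.90 (SE 0.17, adjusted p = 0.00788) in EV cells, a difference of 0.88 (SE 0.24, adjusted p = 0.0295). With it the TRB effect was 1.19 (adjusted p = 0.249) and the difference 0.29 (adjusted p = 0.846). IFI6, a mitochondrial and endoplasmic reticulum protein, TRIM21, an antibody receptor in the cytosol, and PLSCR1, a phospholipid-binding protein, had T3 effects in TRB cells of 2.29, 1.59 and 0.36 with 11 libraries, all called; with 12, PLSCR1 was not called (0.56, adjusted p = 0.0822).

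Levels between genes can be set side by side only per length. In EV vehicle the tested members ran from 0 CPM per kb of exon for MX2 to 50.7 for LGALS3BP, with TRIM25 at 18.5, IFITM2 at 16 and DTX3L at 12.4. In TRB T3, with all 3 libraries, LGALS3BP stood at 103 CPM per kb, PARP14 at 48.0 and DTX3L at 38.3, and MX2 remained the lowest at 0.287. The 16 members that could not be tested are DHX58, HERC5, IFITM1, BST2, OAS2, GBP1, RSAD2, CMPK2, SAMD9L, IFI27, IFI44, IFI44L, XAF1, EPSTI1, TRIM22 and RTP4. Of these HERC5, IFI44L, XAF1 and EPSTI1 had no count in any library. RSAD2, viperin, had 5 counts in all, and CMPK2, its neighbour enzyme, had 27, of which 12 were in TRB T3.

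Other genes of the pathway, a list of 63 symbols of which 61 are in the files and 39 were tested, moved in part. Of 10 interferon ligand genes, 8 had no count in any library, IFNK had 1 count, and IFNE was tested and not called. None of the 5 tested receptor genes was called in either fit (0 of 5). Among the kinases and transcription factors of the signal, STAT2 was called higher in TRB cells with 11 libraries, at 0.40 (SE 0.11, adjusted p = 0.0147), and not with 12. It stood at 67.7, 55.6 and 62.3 CPM in TRB vehicle and 77.7, 30.8 and 80.4 in TRB T3, where replicate 2 lay below TRB vehicle and the others above it. IRF9, JAK1 and TYK2 were not called.

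Over the 39 pathway genes 11 were called higher and 1 lower (WARS) in TRB cells with 12 libraries, against 8.54% and 6.2% of all genes. With 11 it was 15 and 2, against 18.1% and 15.2%. In EV cells 0 were called with 12, where 0.208% of all genes were called higher. With 11, 4 were higher (ADAR, APOL1, GBP3 and IRF3) and 2 lower (WARS and MB21D1), against 3.76% and 3.57% of all genes. APOL1, an apolipoprotein L, stood at 0.434, 0.163 and 1.10 CPM in EV vehicle, 3.70, 3.28 and 3.04 in EV T3, 0, 0.258 and 0.336 in TRB vehicle and 62.6, 49.6 and 62.1 in TRB T3. It rose in both vectors with 11 libraries and more in TRB cells, with a difference of 5.65 (SE 0.83, adjusted p = 0.000802). CXCL11, a chemokine, was at least 45.1-fold higher in TRB T3 than in TRB vehicle, where it had no count, or at least 31.8-fold without replicate 2. TLR3, a sensor of double-stranded RNA, was at least 27.3-fold higher on the same floor. Other pathway genes called higher in TRB cells with 12 libraries included ADAR, GBP3, NMI, PIAS1, TRIM5 and ZC3HAV1. IRF5, MOV10, PTPN6 and STAT2 were called higher with 11 libraries only. KLF9, a T3-responsive gene outside the pathway, stood at 14.6, 14.5 and 13.1 CPM in EV vehicle, 155, 169 and 123 in EV T3, 7.93, 10.9 and 9.32 in TRB vehicle and 104, 257 and 105 in TRB T3. Its T3 effects in both vectors were called in both fits, and with 11 libraries they differed by 0.10 (SE 0.22, adjusted p = 0.785).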

How the data were processed

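The authors deposited raw gene counts for each of the 12 libraries, used as deposited; their normalized table was not used here. The submitters' processing notes name CASAVA 1.7, STAR 2.7, HTSeq 0.10 and DESeq2 with build hg38, without roles; the annotation and strand setting are not given in the sources used here. Trizol extraction and the Kapa Hyperprep RNA kit are named in the labels' protocols. Non-unique alignments were 19.03% to 91.95% of a file's counted alignments and were left out, as were the other summary lines.

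In R 4.3.3, edgeR 4.0.16 filtered genes by filterByExpr (minimum count 10, minimum total 15), scaled by TMM and fitted 1 quasi-likelihood model to all groups, with two-sided Benjamini-Hochberg adjusted p at 0.05. The fit was tried on simulated counts of even spread, without a deviating library or GC trend. That trial does not cover the spread that TRB T3 replicate 2 brings. CPM use the TMM-scaled library size. Positions, exon lengths and GC content come from GENCODE release 29 by symbol.

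Members and gene lists were chosen with earlier results of these data known. Values per library are given for the tested member with the highest mean log2 CPM of a role group, the 5 most positive and 3 most negative called effects in the difference and in EV cells, and up to 6 members whose class differed between fits. MX2, UBE2L6 and others were added after their values were seen. Alternatives were DESeq2 1.42.0, limma 3.58.1 voom, other scalings, filters and prior counts, compared groups alone, a replicate block, GC offsets and leaving out libraries. Some results on pathway and marker genes are not reported here.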

Additional observations from a re-analysis of the deposited data

Results flagged for a closer look

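The T3 effect differed between TRB and EV cells, in edgeR's test of the difference with all 12 libraries, for 7 members and 5 other genes examined with them. The differences on the log2 scale were 4.70 for DDX60, 3.81 for DDX60L, 3.21 for HERC6, 2.59 for IFIT5, 2.55 for MX1, 2.31 for PARP14 and 1.44 for DTX3L. Among the pathway genes they were 5.53 for APOL1, 3.55 for NMI, 2.64 for GBP3 and 1.41 for TRIM5. THRB, the supplied gene, had a difference of 1.72. All 7 members were called again without TRB T3 replicate 2.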

How the results depend on the processing

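No result reversed. With 12 libraries, members called by T3 in TRB cells (26) numbered 14 when every library had to hold at least 10 counts, a filter that tests only 20 members, and 14 with the compared groups alone, where 9.05% and 3.23% of all genes were called higher. For T3 in EV cells (0) they numbered 2 with DESeq2, 21 with limma-voom sample weights, 1 with the strict filter, 4 with groups alone, 7 with GC offsets and 20 with GC offsets without TRB T3 replicate 2, against 0.728%, 20.4%, 0.292%, 1.03%, 1.14% and 7.43% of all genes. For the difference (7) they numbered 14 with DESeq2, 28 with limma-voom, 4 with the strict filter, 17 with GC offsets and 26 with GC offsets on 11 libraries, against 4.08%, 21.3%, 2.3%, 5.96% and 18.5% of all genes. For TRB against EV with T3 (16) they numbered 30 with limma-voom, 8 with the strict filter, 1 with groups alone and 31 with GC offsets on 11 libraries, against 20.2%, 5.19%, 0.218% and 22.8% of all genes; in vehicle (0), 1 with groups alone (5.9%). The receptor rule (7) was met by 14 with DESeq2, 27 with limma-voom, 4 with the strict filter, 17 with GC offsets, and 25 when these were applied to 11 libraries, and the rule for both vectors (0) by 2, 20, 1, 7 and 19. The cause of these shifts was not tested, other than the members lost to the strict filter.

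Leaving out 1 library gave 23 to 34 calls in TRB cells, 0 to 14 in EV cells, 2 to 21 in the difference, 9 to 30 for TRB against EV with T3, 0 to 0 in vehicle, 2 to 21 for the receptor rule and 0 to 13 for both vectors. The shares of all genes called higher moved too. They ran from 5.34% to 18.1% in TRB cells, 0.0674% to 3.76% in EV cells, 0.722% to 8.55% in the difference and 1.86% to 11.8% for TRB against EV with T3. From the 11 libraries a further omission gave 31 to 34, 5 to 17, 16 to 23, 20 to 29, 0 to 1, 14 to 22 and 5 to 16. Omissions that leave 1 library in a group assume that it varies like the others. Without EV T3 replicate 2 as well as TRB T3 replicate 2, 22.6% of all genes were called higher in TRB cells. In EV cells it was 21.1%, in the difference 18.6% and for TRB against EV with T3 16.2%.

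With the replicate block the calls were 26, 0, 8, 15 and 0 with 12 libraries, in the order above, and 34, 15, 24, 27 and 0 with 11. Of 18 pairs of libraries with the same number, 12 correlated above 0.1, with r from -0.19 to 0.728, among them all 6 pairs of replicate 2, and 7 of 12 libraries correlated best with a library of their own number. The labels give no pairing and not every pair passed 0.1, so the block was not used for the main values; whether some numbers share handling was not tested. Groups alone were not run for the difference or the classes. Members at under 1 CPM rest on few counts, and 16 could not be tested.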
